A study of Homo sapiens with 6 samples.

Results

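The mitochondrial ribosome was followed through the messenger RNAs of its proteins in SW480 cells treated with MPM-1. The genes were taken by symbol, as every gene whose name starts with MRPL or MRPS followed by a digit. This gave 78 of the 12982 genes measured. Of these, 51 encode proteins of the large subunit and 26 proteins of the small subunit. MRPS36 is placed in neither, because its product is known as a subunit of the α-ketoglutarate dehydrogenase complex. MRPS30 and MRPS18A carry small-subunit symbols, yet their proteins sit in the large subunit and were counted there.

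SW480 is an established human colorectal adenocarcinoma cell line. MPM-1, called WT4 in the sample labels, is a small fluorescent molecule made to accumulate in mitochondria. Cells received MPM-1 or its solvent DMSO for 24 h, and RNA from 3 samples of each treatment was sequenced. No genetic change was introduced in either group. The dose used for these libraries is not given in the sources used here, and nothing in the labels says whether the replicates were separate cultures, so the p-values measure the spread between these samples, which may be technical.

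Mitochondria keep a small genome that encodes subunits of the respiratory chain, and they translate its messages on ribosomes of their own. The ribosomal RNAs come from the mitochondrial genome, while every protein of the ribosome is encoded in the nucleus, made in the cytosol and imported. The large subunit forms peptide bonds and holds the exit tunnel through which the new chain leaves, and the small subunit reads the message. Some of the proteins belong to families shared with bacterial ribosomes and others were added in mitochondria. Colorectal cancer cells, like other dividing cells, need this system to renew the oxidative phosphorylation complexes.

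The libraries held between 31733667 and 40269820 counts each. Their epithelial identity was checked on colon epithelial markers, of which 9 of 10 listed were measured and CEACAM5 was not. KRT8, KRT18, KRT19, EPCAM and CDH1 were all above 100 CPM in every library. CPM is a gene's reads as a share of the library after trimmed mean of M-values (TMM) scaling. With MPM-1, KRT8, KRT18, KRT19, CDH1 and LGALS4 were higher, CDX2, KRT20 and VIL1 lower and EPCAM not called, and the summed level of the 9 was 8684 to 10123 CPM with DMSO and 12773 to 14365 with MPM-1. CDX2, an intestinal transcription factor, was 82.5 ± 3.51 CPM (SD, n = 3) with DMSO and 17.9 ± 4.33 with MPM-1. Of 9 markers of blood, stromal, endothelial and liver cells, 3 were in the table, and their summed level was 62.8 to 90.8 CPM with DMSO and 139 to 155 with MPM-1. CD68, a lysosomal protein of macrophages that other cells also express, made up most of that sum, and COL1A1 and PDGFRB stayed under 4 CPM in every library. All 8 proliferation markers were lower with MPM-1, with summed levels of 1293 to 1330 CPM in DMSO libraries and 497 to 522 in MPM-1 libraries. The part of these shifts in the results on the mitochondrial ribosome was not tested.

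After MPM-1, transcripts of the mitochondrial ribosome were more often lower than higher. By edgeR's quasi-likelihood test at an adjusted p under 0.05, 38 of the 78 genes were lower and 6 were higher, and 34 were not called. Over all genes tested, 28.8% were lower and 27.7% higher, against 48.7% and 7.69% of the mitochondrial ribosomal protein genes. Either way, 56.5% of all genes passed this test. The median log2 fold change over the 78 genes was -0.23, beside -0.026 over all genes, and single genes ranged from -1.11 to 1.06. The differences were mostly small. A stricter call asked for an adjusted p under 0.01 together with a log2 difference of 1 or more in size. By it, MRPL28 and MRPL16 were lower and MRPS30 was higher, where 8.75% and 5.58% of all genes were lower and higher. In 40 genes every MPM-1 library lay below every DMSO library, and in 10 every MPM-1 library lay above, where 33.3% and 31% of all genes separated in these directions. Because RNA was taken from whole cultures, fewer cells of a kind and less RNA per cell cannot be told apart.

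**Figure D1:**
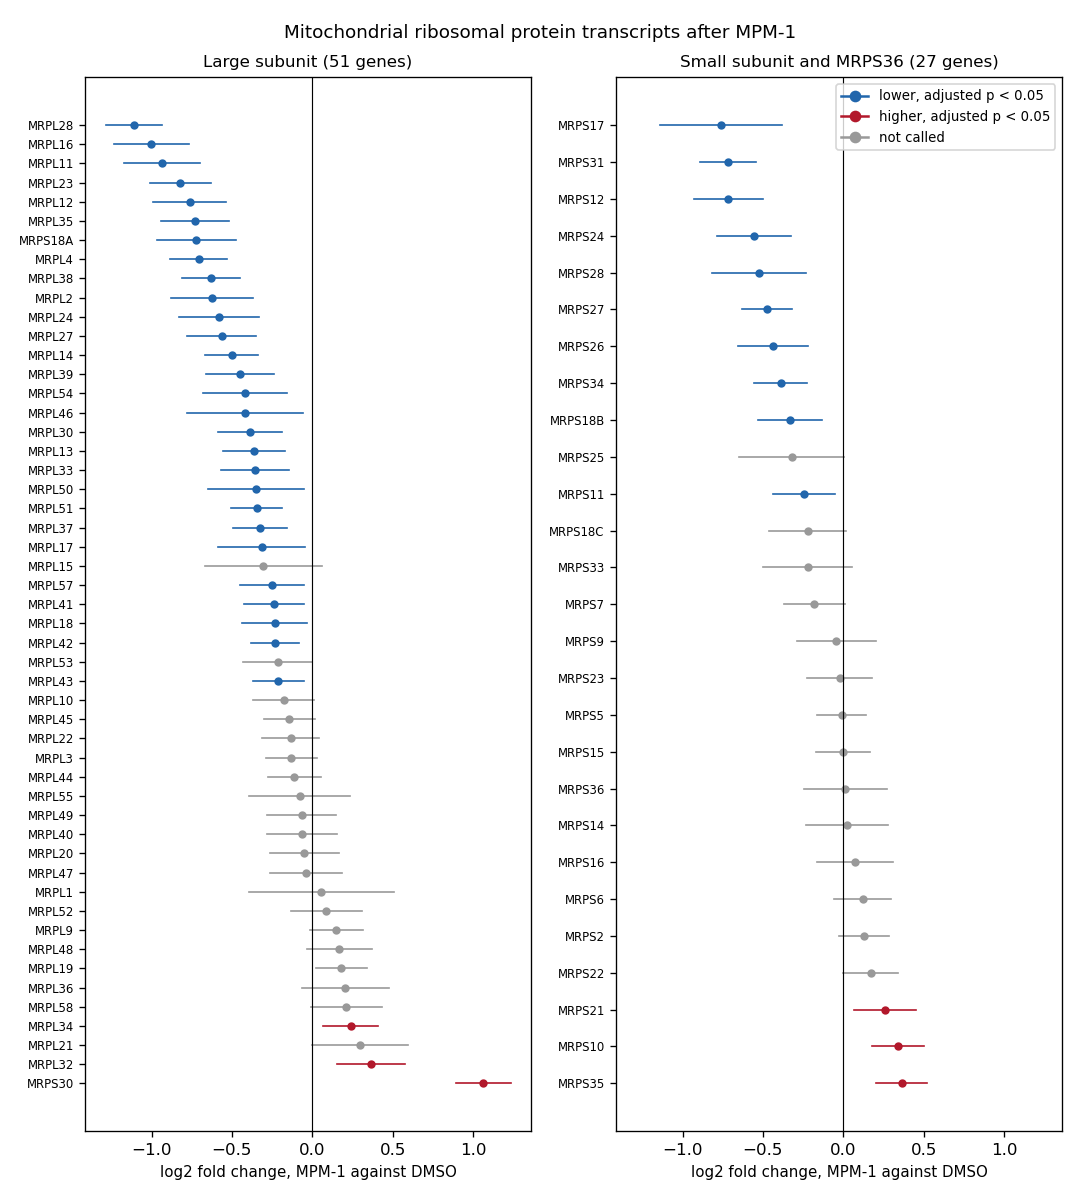
The log2 fold change of MPM-1 against DMSO is plotted on the horizontal axis for each of the 78 genes, with the 51 large-subunit genes on the left and the 26 small-subunit genes and MRPS36 on the right. Points are edgeR estimates from 3 libraries per treatment, bars are 95% confidence intervals, and colour marks the call. Blue, lower genes fill the upper part of both panels, from -1.11 for MRPL28, and the 6 red, higher genes end with MRPS30 at 1.06.

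Every gene was well counted, with between 305 and 9484 reads in each library, so that none was lost to a filter on low counts. Replicates varied by a median of 6.83% (coefficient of variation) with DMSO and 7.30% with MPM-1. MRPL1 was the most variable with DMSO, at 29.3%, and MRPL15 with MPM-1, at 25.4%. Levels of a gene in each library are given in CPM, and levels compared between genes in FPKM, fragments per kilobase of transcript and per total of mapped fragments.

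MRPL28 had the deepest fall. Its product is a large-subunit protein of the bacterial L28 family. The gene lies at chr16:366969-371289 (GRCh38). Its level was 168, 155 and 152 CPM in the DMSO libraries and 71.2, 77.7 and 71.1 CPM in the MPM-1 libraries, so the groups lay far apart. The log2 fold change was -1.11 ± 0.078 (SE), with an edgeR adjusted p of 4.8e-06. MRPL16, which encodes a large-subunit protein of the family that lines the tRNA path near the catalytic centre, followed. It measured 57.6, 69.2 and 65.8 CPM with DMSO and 28.7, 35.0 and 32.7 CPM with MPM-1. These did not overlap, which was required for a fall to be named here. Its log2 fold change of -1.0 ± 0.10 had an edgeR adjusted p of 4.31e-05 and stood almost exactly at the limit of the stricter call. It missed that limit without DMSO replicate 2 (-0.94), without DMSO replicate 3 (-0.98), without MPM-1 replicate 1 (-0.91) and, narrowly, without MPM-1 replicate 3 (-0.999), and without DMSO replicate 2 MRPL11 passed it in its place (-1.01). MRPL16 also missed the limit, at -0.98, with DESeq2 size factors and in the DESeq2 test. With an offset for GC content and length neither MRPL28 (-0.95) nor MRPL16 (-0.96) passed it.

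The largest rise was that of MRPS30, also known as PDCD9, which was first described as a programmed cell death protein. It belongs to one protein family with MRPL37, its neighbour in the large subunit. MRPS30 measured 39.4, 38.9 and 41.7 CPM in DMSO libraries and 84.9, 79.2 and 86.5 CPM in MPM-1 libraries, far above, with a fold of 2.09 and log2 fold changes of 0.88 to 1.13 over all alternatives, the values under 1 coming from library size scaling and from FPKM. The log2 fold change was 1.06 ± 0.076 with an edgeR adjusted p of 5.19e-06. MRPL37 moved the other way, from 150 ± 2.67 CPM to 120 ± 7.75 (SD, n = 3), with a log2 fold change of -0.33 and an edgeR adjusted p of 0.00468. The ratio of MRPS30 to MRPL37 in FPKM was 0.23 to 0.247 with DMSO and 0.585 to 0.674 with MPM-1.

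MRPL32 had the second largest rise, and its protein is known for being cut by the m-AAA protease before it joins the large subunit. Its level was 49.5, 44.0 and 52.5 CPM with DMSO and 68.3, 58.4 and 61.5 CPM with MPM-1. The groups did not overlap, which was required for a rise to be named here. The log2 fold change was 0.37 ± 0.094 with an edgeR adjusted p of 0.00846. Promoter stretches are shown for MRPL28 and MRPL16, the genes with the deepest falls, and for MRPS30, the gene with the largest rise. The stretches carry, in different combinations, motifs counted for the whole family further on. Each comes from the 250 bases before the gene start in RefSeq (GRCh38.p14), without the bases that GENCODE annotates as untranslated region, and is read in the direction of transcription with capitals for matches to the motifs on either strand. The annotations place the starts differently. For MRPL28 the RefSeq start is at base 370538 and the outermost GENCODE start at 371289, so that its stretch lies inside the gene as GENCODE draws it. GENCODE starts MRPL16 94 bases and MRPS30 22 bases before the RefSeq start. For MRPL32, 217 of the 250 bases are untranslated region of MRPL32 or of opposite-strand genes in GENCODE, and no stretch is shown.
MRPL28, chr16:370539-370772, minus strand: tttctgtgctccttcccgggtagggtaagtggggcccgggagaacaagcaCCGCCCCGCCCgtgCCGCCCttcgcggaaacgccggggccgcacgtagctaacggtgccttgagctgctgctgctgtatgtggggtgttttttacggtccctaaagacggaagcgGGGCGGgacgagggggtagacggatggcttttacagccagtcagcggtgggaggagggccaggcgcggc
MRPL16, chr11:59810873-59811028, minus strand: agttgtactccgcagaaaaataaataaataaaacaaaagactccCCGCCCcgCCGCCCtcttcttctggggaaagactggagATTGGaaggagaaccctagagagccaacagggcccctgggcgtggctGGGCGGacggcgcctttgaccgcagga
MRPS30, chr5:44808697-44808924, plus strand: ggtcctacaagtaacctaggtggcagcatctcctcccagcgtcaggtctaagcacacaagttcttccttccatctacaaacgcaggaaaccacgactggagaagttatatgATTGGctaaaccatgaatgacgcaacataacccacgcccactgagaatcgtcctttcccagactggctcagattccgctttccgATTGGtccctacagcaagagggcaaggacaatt

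In the MRPL28 stretch the capitals are 4 matches to GGGCGG, the core bound by SP1, on either strand, of which the first and second share a base. In that of MRPL16 they are 3 such matches and 1 inverted CCAAT box, and a match to CCGGAAG, the core bound by GABP and other ETS factors, starts 6 bases before the RefSeq start and runs past it, outside the letters shown. The MRPS30 stretch holds no SP1 core, and its capitals are 2 inverted CCAAT boxes. Past the RefSeq start, in the part counted further on but not shown, MRPL28 has an inverted GABP core from base 8. There MRPS30 has a YY1 core (AAGATGGC) from base 14. The 250 bases before the RefSeq start of MRPL32 hold an inverted YY1 core (AAGATGGC), the NRF1 core GCGCATGC, an inverted CCAAT box and 3 SP1 cores.

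**Figure D2:**
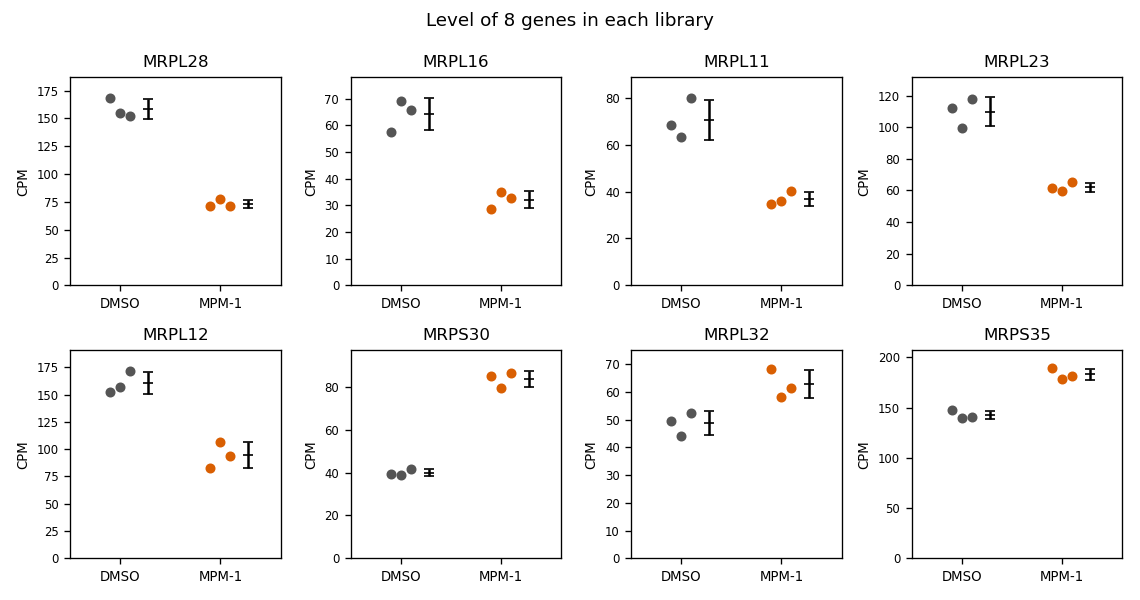
The level of 8 genes is plotted per library in CPM on the vertical axis, with 3 DMSO libraries in grey and 3 MPM-1 libraries in orange. Black bars are the mean and SD of each treatment, and every axis starts at 0. In MRPL28, MRPL16, MRPL11, MRPL23 and MRPL12 the orange points all lie below the grey ones, and in MRPS30, MRPL32 and MRPS35 they all lie above. Genes named as the largest falls and rises had to separate in this way.

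Next came genes of the stalk, the mobile arm of the large subunit that recruits translation factors. MRPL11 forms the stalk base, and its level was 68.2, 63.3 and 79.9 CPM with DMSO and 34.5, 35.8 and 40.3 CPM with MPM-1, a log2 fold change of -0.93 ± 0.11 (edgeR adjusted p 7.36e-05). MRPL12 is the repeated tip protein of the stalk and is also known to bind the mitochondrial RNA polymerase. It measured 152, 157 and 172 CPM with DMSO and 82.9, 107 and 94.1 CPM with MPM-1, a log2 fold change of -0.76 ± 0.10 (edgeR adjusted p 0.000196). MRPL10, which anchors MRPL12, had 76.9 ± 5.29 CPM and 67.9 ± 4.82 CPM, and its log2 fold change of -0.18 was not called (edgeR adjusted p 0.102). Its MPM-1 libraries nevertheless all lay below its DMSO libraries. It was called lower when libraries were scaled by their total alone and when FPKM were tested, and stayed uncalled in 13 of 18 alternatives. In FPKM, the ratio of MRPL12 to MRPL10 was 3.01 to 3.92 with DMSO and 2.21 to 2.66 with MPM-1, and that of MRPL11 to MRPL10 was 1.25 to 1.64 and 0.814 to 0.832. The stalk genes were put together after their values were seen.

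Around the exit tunnel, likewise grouped after the values were seen, 3 of 6 genes fell, where 28.8% of all genes did, and nothing is read from so few genes. MRPL23, whose bacterial relative is the docking site for factors that meet the new chain, was at 112, 99.8 and 118 CPM with DMSO and 61.6, 59.6 and 65.1 CPM with MPM-1, a log2 fold change of -0.82 ± 0.085 (edgeR adjusted p 4.16e-05). MRPL4, which reaches into the tunnel wall, was at 184, 157 and 164 CPM and at 103, 103 and 103 CPM, a log2 fold change of -0.71 ± 0.079 (edgeR adjusted p 7.13e-05). MRPL24, of the bacterial L24 family at the tunnel opening, had a log2 fold change of -0.58 ± 0.11. Of the remaining tunnel genes, MRPL22 at -0.13, MRPL47 at -0.04 and MRPL45 at -0.14 were not called, the last of these encoding the protein that ties the ribosome to the inner membrane. In these 3 uncalled genes the 95% intervals of the log2 fold change reached from -0.31 to 0.04, from -0.26 to 0.19 and from -0.30 to 0.01.

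Among the other large-subunit genes, MRPL35, of the bacterial L35 family, was at 44.4, 45.7 and 44.7 CPM with DMSO and 24.0, 29.3 and 27.9 CPM with MPM-1, a log2 fold change of -0.73 (edgeR adjusted p 0.000167). MRPS18A is 1 of 3 human relatives of bacterial protein S18 and the one that joins the large subunit. It was at 143, 119 and 126 CPM and at 67.5, 88.0 and 79.8 CPM, a log2 fold change of -0.72 (edgeR adjusted p 0.000445). Its small-subunit relatives had smaller values, -0.33 for MRPS18B, which fell, and -0.22 for MRPS18C, which was not called. MRPL38, a mitochondria-specific protein of the central protuberance, was at 106, 97.0 and 91.7 CPM with DMSO and 62.7, 66.2 and 61.8 CPM with MPM-1, a log2 fold change of -0.63 (edgeR adjusted p 0.000156). None of these 3 overlapped between treatments, which was required for a fall to be named here. Of all genes, 33.3% separated downward.

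In the small subunit 10 of 26 genes fell (38.5%), where 28.8% of all genes did. MRPS17, of the bacterial S17 family that binds ribosomal RNA, was at 18.5, 21.7 and 21.2 CPM with DMSO and 10.0, 15.3 and 11 CPM with MPM-1. It had the lowest estimate of the subunit but also a wide error, a log2 fold change of -0.76 ± 0.17 (edgeR adjusted p 0.00399). MRPS31, a mitochondria-specific protein, was tighter, at 47.5, 50.3 and 47.9 CPM and at 29.2, 30.3 and 29.1 CPM, with a log2 fold change of -0.72 ± 0.078 (edgeR adjusted p 5.72e-05). MRPS12, whose bacterial relative sits at the decoding centre and is where streptomycin resistance arises, was at 95.7, 82.2 and 90.9 CPM and at 48.9, 59.4 and 55.3 CPM. Its log2 fold change was also -0.72, ± 0.096 (edgeR adjusted p 0.0002).

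The remaining rises were small, and 3 of the 4 were in the small subunit. MRPS35, a mitochondria-specific small-subunit protein, was at 147, 139 and 141 CPM with DMSO and 189, 178 and 182 CPM with MPM-1, a log2 fold change of 0.36 ± 0.070 (edgeR adjusted p 0.00171). MRPS10, of the bacterial S10 family, was at 58.9, 60.8 and 64.7 CPM and at 77.4, 77.2 and 78.4 CPM, a log2 fold change of 0.34 (edgeR adjusted p 0.00319). The fold of these 2 genes was 1.28 and 1.26. MRPS21 was at 37.7 ± 0.783 CPM and 45.0 ± 3.58, a log2 fold change of 0.26 (edgeR adjusted p 0.0275), and MRPL34, in the large subunit, at 89.7 ± 6.28 and 106 ± 0.577, a log2 fold change of 0.24 (edgeR adjusted p 0.0228). The MPM-1 libraries lay above the DMSO libraries in all 4, which was required for a rise to be named here. Of all genes, 31% separated upward. The rises of MRPL32, MRPS10, MRPS21 and MRPL34 were no longer called when libraries were scaled by their total alone or when FPKM were tested, whereas those of MRPS30 and MRPS35 were called under every alternative. Single libraries also decided 2 of these calls. MRPL34 was not called without either of DMSO replicates 1 and 2 or without MPM-1 replicate 3 (log2 fold changes of 0.21, 0.21 and 0.25), and MRPS21 was called only when MPM-1 replicate 1 was the library left out, with log2 fold changes of 0.22 to 0.28 otherwise.

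Levels among the 78 genes spanned 27.8-fold in mean FPKM over the 6 libraries, around a median of 47.0. MRPS34 was the highest at 178 FPKM, followed by MRPL41 and MRPS24. All 3 were lower, where 48.7% of the 78 genes and 28.8% of all genes were, and nothing is read from so few. MRPS34 went from 212 ± 12.6 to 162 ± 3.34 CPM, MRPL41 from 219 ± 19.5 to 185 ± 6.4 CPM, and MRPS24 from 129 ± 10.3 to 88.0 ± 10.2 CPM (SD, n = 3). MRPS34 and MRPL41 are mitochondria-specific, and MRPS24 is the relative of bacterial protein S3, at the entry of the message. The lowest were MRPS25 at 6.39 FPKM, MRPS17 and MRPL50. MRPS25 had a log2 fold change of -0.32 that was not called (edgeR adjusted p 0.0859), and MRPL50 one of -0.35 with an edgeR adjusted p of 0.0472, although its libraries overlapped. MRPL41 was called only when DMSO replicate 2 was the library left out, with log2 fold changes of -0.25 to -0.18 otherwise, and MRPL50 lost its call without DMSO replicate 2 or 3 or MPM-1 replicate 1 or 3, at -0.30 to -0.25. MRPS25 was called lower without MPM-1 replicate 1, at -0.48. Spearman's rho between log2 fold change and mean FPKM was -0.079 over the 78 genes, which come from the same 6 libraries.

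Genes whose product has a further role were read singly. MRPL58, formerly ICT1, is a peptidyl-tRNA hydrolase that became part of the large subunit and frees stalled ribosomes. It was at 43.1, 41.7 and 51.1 CPM with DMSO and 49.3, 55.6 and 52.5 CPM with MPM-1, so the groups overlapped, and the log2 fold change of 0.21 was not called (edgeR adjusted p 0.0903), although it was higher at 0.31 without DMSO replicate 3. MRPS36, the dehydrogenase subunit, was at 28.4, 30.1 and 31.3 CPM and at 26.7, 35.2 and 28.8 CPM. Its log2 fold change was 0.013 with a 95% interval from -0.24 to 0.27, and its sign turned under several alternatives, among them library size scaling at -0.14 and the fits without DMSO replicate 1 at -0.023 or MPM-1 replicate 2 at -0.086.

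By subunit, 28 of 51 large-subunit genes were lower and 3 higher, with a median log2 fold change of -0.24, and 10 of 26 small-subunit genes were lower and 3 higher, with a median of -0.20. Within the large subunit, 17 of 30 genes of bacterial families were lower and 2 higher (median -0.34), beside 11 lower and 1 higher of 20 genes specific to mitochondria (median -0.22). In the small subunit, 6 of 17 genes of bacterial families were lower and 2 higher (median -0.043), beside 4 lower and 1 higher of 9 mitochondria-specific genes (median -0.32). Over all genes 28.8% were lower and 27.7% higher, with a median of -0.026. The small-subunit genes of bacterial families, with 35.3% lower, lay nearest to that share and that median. MRPL55 was left out of this split because its ancestry was unsure. Differences between these classes were not tested.

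Summed over the 78 genes, the level was 6008 to 6372 CPM with DMSO (median 6219) and 5165 to 5491 CPM with MPM-1 (median 5274), a ratio of means of 0.857. The large subunit had a ratio of 0.825 and the small subunit 0.914, with no overlap between treatments in either. In FPKM the ratio for all 78 was lower, at 0.754. The share of all counts was 0.639% to 0.676% with DMSO and 0.481% to 0.532% with MPM-1. Large over small subunit, in summed FPKM, was 2.04 to 2.12 with DMSO and 1.86 to 1.93 with MPM-1. The net difference was -889 CPM, from falls that summed to -1113 CPM and rises that summed to 224 CPM. MRPL28, MRPL12, MRPL4, MRPS18A and MRPS34, chosen for being the largest falls, gave -317 CPM. That was 35.7% of the net and a smaller share of the falls. The spread of levels between genes hardly moved, with an SD of log2 FPKM over the 78 genes of 1.02 to 1.10 with DMSO and 0.99 to 1.05 with MPM-1.

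**Figure D3:**
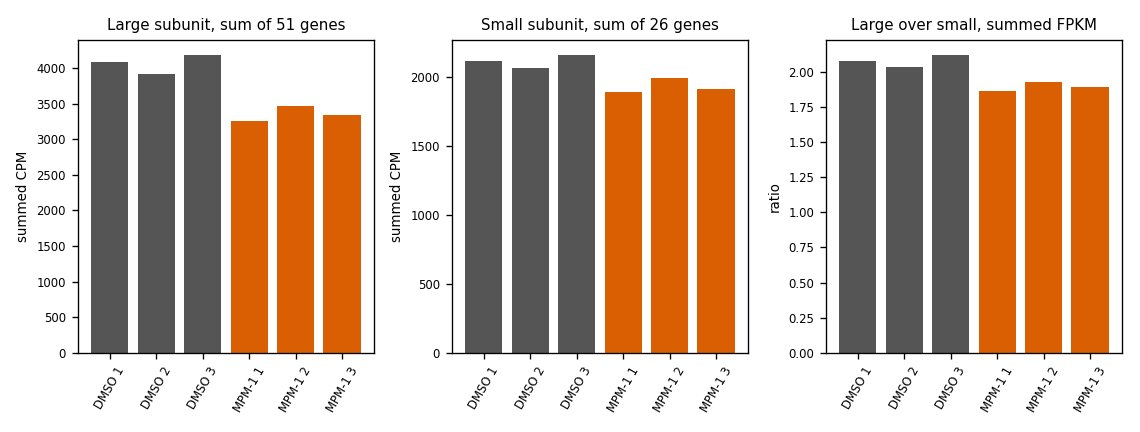
Bars give, for each library, the summed level in CPM of the 51 large-subunit genes and of the 26 small-subunit genes, and on the right the ratio of their summed FPKM, with 3 DMSO libraries in grey and 3 MPM-1 libraries in orange and axes from 0. The 3 orange bars are below the 3 grey ones in every panel, and the ratio goes from between 2.04 and 2.12 to between 1.86 and 1.93.

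Mitochondrial ribosomal proteins that carry other symbols moved in both directions, with 5 of 6 measured. DAP3, a GTP-binding small-subunit protein first described as a death-associated protein, rose from 113, 108 and 103 CPM to 174, 171 and 163 CPM, a log2 fold change of 0.64 (edgeR adjusted p 7.19e-05). CHCHD1 and PTCD3, both of the small subunit, fell, with log2 fold changes of -0.58 and -0.49. GADD45GIP1, in the large subunit, at -0.17 and AURKAIP1, in the small subunit, at -0.13 were not called.

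The machinery that builds and serves this ribosome was lower more often than higher. Of 29 assembly factors, 15 were lower and 2 higher, with a median log2 fold change of -0.37. For these lists too, the shares over all genes were 28.8% lower and 27.7% higher. DDX28, an RNA helicase of large-subunit assembly, had the deepest fall, from 12.1 ± 1.85 to 3.23 ± 1.94 CPM (log2 fold change -1.91, edgeR adjusted p 0.00206). NGRN, which acts on the large ribosomal RNA, had the largest rise, from 106 ± 5.46 to 168 ± 6.65 CPM (log2 fold change 0.67, edgeR adjusted p 6.96e-05). Of 19 translation factors, 8 were lower and 2 higher (median -0.22). C12orf65, a release factor that rescues stalled mitochondrial ribosomes, was lowest at -1.24, and LRPPRC, which stabilises mitochondrial messages, highest at 0.31, a rise not called under library size scaling. Of 20 mitochondrial tRNA synthetases and related enzymes, 16 were lower and 3 higher (median -0.57). PARS2, the prolyl enzyme, went from 5.53 ± 1.21 to 1.15 ± 1.07 CPM (log2 fold change -2.27), and RARS2, the arginyl enzyme, from 45.9 ± 0.484 to 77.5 ± 2.57 CPM (log2 fold change 0.75).

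The messages that this ribosome translates had larger negative fold changes than those of its own proteins. All 13 messages of the mitochondrial genome were lower, with a median log2 fold change of -1.89, from MT-ND6 at -2.65 to MT-ND1 at -0.71. Their share of all counts was 8.28% to 9.11% with DMSO and 1.95% to 2.35% with MPM-1. Of 79 nuclear genes of oxidative phosphorylation subunits, whose proteins join the mitochondrial ones, 46 were lower and 3 higher, with a median of -0.30. Among all genes, 28.8% were lower and 27.7% higher. NDUFV1, a complex I subunit that binds NADH, was lowest at -1.01, and NDUFA12, another complex I subunit, highest at 0.43. The mitochondrial ribosomal RNAs were not analysed here.

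Ribosomal proteins of the cytosol were more often higher than lower. Of 84 such genes and paralogues, 54 were higher and 3 lower, with a median log2 fold change of 0.30. Among all genes, 27.7% were higher and 28.8% lower. RPS27 had the largest rise, from 265 ± 16.5 to 519 ± 34.1 CPM (log2 fold change 0.97), and RPL7L1, a relative of RPL7, the largest fall, at -0.59. In summed FPKM, cytosolic ribosomal proteins were 23.8 to 25.3 times the level of mitochondrial ones with DMSO and 34.3 to 37.7 times with MPM-1. The libraries of the treatments did not overlap in this ratio. By library size alone 38 cytosolic genes were higher and 8 lower, with a median of 0.15, and the assembly factors, translation factors, tRNA synthetases and oxidative phosphorylation genes each had more lower than higher genes under that scaling too. The same scaling called 19.9% of all genes higher and 37.5% lower.

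**Figure D4:**
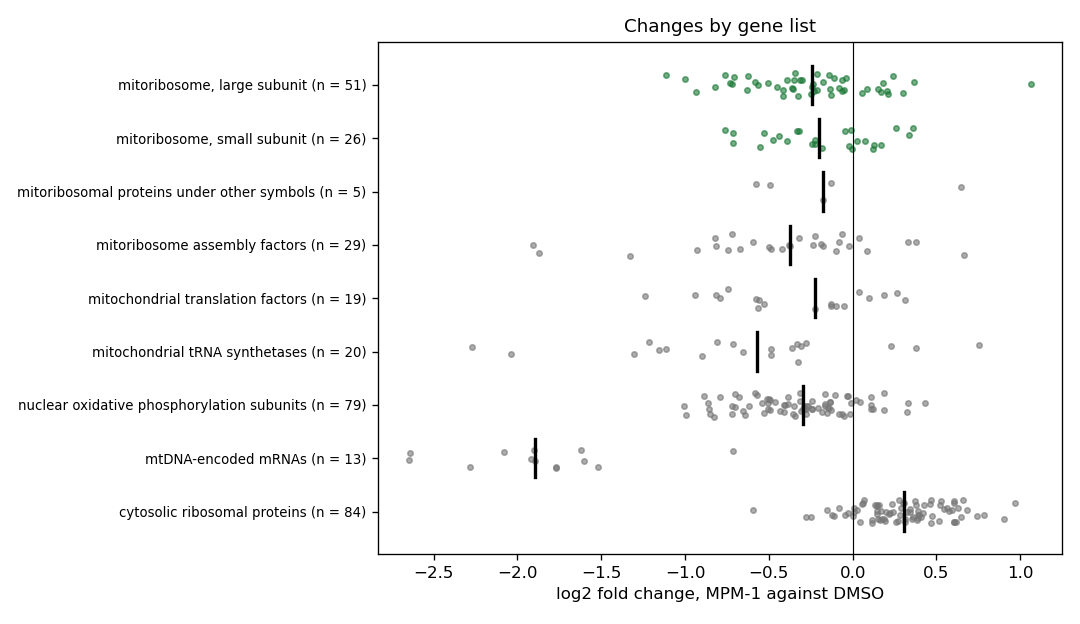
Each point is the log2 fold change of 1 gene, MPM-1 against DMSO, on the horizontal axis, and each row is a gene list with its number of genes, with the mitochondrial ribosome in green and black bars for medians. Medians of both subunits lie at -0.24 and -0.20, those of tRNA synthetases and mitochondrial messages further left at -0.57 and -1.89, and that of cytosolic ribosomal proteins to the right of 0 at 0.30.

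Regulators known to act on genes of mitochondrial biogenesis were called in both directions, 5 higher and 5 lower of 16 measured, shares of 31.2% each that are near the 27.7% and 28.8% of all genes. MYC, a driver of ribosome genes, was at 68.5, 98.9 and 88.4 CPM with DMSO and 17.3, 36.6 and 28.4 CPM with MPM-1, a log2 fold change of -1.64 (edgeR adjusted p 0.000313). GABPA, the DNA-binding part of GABP, fell from 54.4 ± 3.03 to 40.2 ± 2.2 CPM (log2 fold change -0.44, edgeR adjusted p 0.0016). NRF1 at 0.17 and PPRC1, a coactivator, at -0.06 were not called. DDIT3, the stress factor CHOP, had the largest rise, from 40.4 ± 4.85 to 319 ± 87.2 CPM (log2 fold change 2.98). PPARGC1A was not analysed here.

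Matches to the cores of such factors were counted from 250 bases before to 50 bases after the gene start, on both strands, in the 69 of 78 genes found in the RefSeq table. The YY1 core AAGATGGC was in 29% of them, beside 5.60% of 9595 promoters of tested genes and 2.89% of all 35116 promoters. The GABP core CCGGAAG was in 40.6%, beside 19.9% and 10.3%, and the NRF1 core GCGCATGC in 8.70%, beside 5.64% and 3.05%. The SP1 core GGGCGG was in 58.0%, beside 71.4% and 45.0%, and CCAAT in 31.9%, beside 36.6% and 34.6%. The E-box CACGTG, a core bound by MYC, was in 13.0%, beside 10.3% and 7.26%, and the ATF4 element TGATGNAA in 1.45%, beside 1.51% and 3.62%. Of the 33 lower genes with a promoter, 10 held the YY1 core, 14 the GABP core and 2 the E-box, and of the 30 uncalled genes 7, 12 and 7 did. Among the 6 higher genes 3 held the YY1 core, 2 the GABP core and none the E-box. In lower, uncalled and higher genes, the SP1 core was in 20, 16 and 4 and the CCAAT box in 13, 6 and 3. The NRF1 core was in 2, 3 and 1 and the ATF4 element in 0, 1 and 0. Differences between these groups were not tested. These counts are descriptions of letters and say nothing of binding, and no motif contains another.

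Several of these genes share their locus with others. At their start, 15 have the start of a measured gene on the opposite strand within 1000 bases. Counted from each member, 9 of the 15 pairs had the same sign, 5 were lower in both genes and 2 were called in opposite directions. Over all genes 28.8% were lower and 27.7% higher, and of the 78 genes 48.7% were lower. Nothing is read from so few pairs. MRPL46 and MRPS11 are neighbours and so count from both sides. Other pairs lower in both were MRPL27 with EME1 (log2 fold changes of -0.56 and -1.02), MRPL57 with SKA3 (-0.25 and -0.98) and MRPL50 with ZNF189 (-0.35 and -0.73). Described further are the pair that joins 2 mitochondrial ribosomal protein genes and the 2 pairs called in opposite directions. MRPL46 and MRPS11 start 34 bases apart and had log2 fold changes of -0.42 and -0.24 (edgeR adjusted p 0.0484 and 0.0352). Both calls were fragile. MRPL46 kept its call in 12 of 18 alternatives, with log2 fold changes of -0.59 to -0.22, and lost it when any library but MPM-1 replicate 2 was left out. MRPS11 kept its call in 7 of 18, at -0.40 to -0.16, and lost it when any library but DMSO replicate 1 was left out. MRPS34 fell by 0.39 on the log2 scale while EME2, 52 bases away, rose by 0.86, and MRPL30 fell by 0.39 while MITD1, 21 bases away, rose by 0.32.

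Exons of 16 genes overlap those of another gene on the same strand and exons of 29 a gene on the opposite strand, while 37 overlap neither, and 34 have an annotated pseudogene. Whether counting used the strand is not given in the sources used here, so reads of overlapping pairs cannot be told apart. MRPL28 overlaps TMEM8A on the same strand, and TMEM8A rose from 97.2 to 132 CPM (log2 fold change 0.44, edgeR adjusted p 0.00104). MRPS17 overlaps NIPSNAP2, which fell by 0.26 on the log2 scale. MRPS12 overlaps SARS2, the mitochondrial seryl-tRNA synthetase, on the opposite strand, and SARS2 went from 16.5 to 10.5 CPM. MRPL32 overlaps PSMA2, a proteasome subunit that stood at 192 and 177 CPM and was not called. MRPS30 and MRPL16 overlap no other gene.

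Base composition moved with the change, and its part was not tested. Spearman's rho between log2 fold change and transcript GC content was -0.33 over the 78 genes and -0.11 over 12127 genes with a value, and with transcript length it was -0.006 and -0.055. The median transcript GC content was 50.5% in the 78 genes and 50.6% in all genes. With an offset for GC content and length, 9 of the 78 genes were higher and 32 lower, and the median was -0.17, beside 0.038 over all genes. That fit called 31.4% of all genes higher and 26.2% lower. The 78 genes share libraries, so this is a description. The scaling of the libraries moved all genes together: by library size alone the median over all genes was -0.18, and 19.9% were higher and 37.5% lower. Under that scaling 2 of the 78 genes were higher and 49 lower, and their median lay 0.20 below that of all genes, as it did with TMM scaling.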

How the data were processed

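SW480 cells were kept for 24 h in MPM-1 or in DMSO, and mRNA was sequenced in 3 libraries of each, grouped by their labels. Members and gene lists were chosen with earlier results of these data known. Library preparation, sequencing and first analysis were done by a company. The submitters' processing notes name HISAT2, DESeq2 and the mouse build mm10, although the identifiers are human Ensembl genes. Versions, annotation and counting settings are not given in the sources used here. The authors deposited 1 table with whole-number read counts per gene and library, not normalized, and FPKM, which the authors scaled for transcript length and library size. It also holds a log2 fold change and an FDR (adjusted p-value) of the authors' own comparison, which were not used. Every gene in it has at least 115 counts in total.

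Counts were tested with edgeR 4.0.16 (quasi-likelihood, TMM, filterByExpr, R 4.3.3) on all 12982 genes, with Benjamini-Hochberg adjustment over all of them; filterByExpr removed 0 genes. CPM values are scaled by TMM factors. Standard errors were derived from the F statistic, and 95% intervals from its degrees of freedom. With 31733667 to 40269820 counts per library, a member gene had at least 305, where counting error is of the order of the replicate spread, and it is smaller for higher counts. Replicates differed by more than sampling noise (chi-square per gene 15.4 to 33.2). The genes named were the 12 largest falls and the rises (up to 12, of which 6 existed) with adjusted p under 0.05 and no overlap of libraries, the 3 highest and 3 lowest in FPKM, those past the stricter call, genes with a described role, and the largest rise and fall of each list. Stalk, tunnel, neighbour and overlap genes, and relatives of a named gene, were named after their values were seen. Alternatives were DESeq2 1.42.0 and its size factors, library size scaling, TMM without mitochondrially encoded genes, other filters, a replicate block, each library left out, limma 3.58.1 on log2 FPKM with pseudocounts of 0.01, 0.1 and 1, and, added after seeing the data, an offset for GC content and length (loess, span 0.3). Gene positions and overlaps are from GENCODE (GRCh38) by identifier, and promoters from RefSeq (GRCh38.p14), with the first listed start per symbol and without GENCODE untranslated regions where letters are printed.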

Additional observations from a re-analysis of the deposited data

How the results depend on the processing

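No called gene of the 78 changed sign in any of the 18 alternatives, and 27 of 38 lower, 2 of 6 higher and 17 of 34 uncalled genes kept their call in all. Leaving out single libraries gave 28 to 38 lower and 4 to 7 higher genes, medians of -0.24 to -0.16 over the 78, -0.28 to -0.18 for the large and -0.23 to -0.14 for the small subunit, with 1 to 2 lower past the stricter call (1 without DMSO replicate 3, MPM-1 replicate 1 or MPM-1 replicate 3). In these fits 23.7% to 27.5% of all genes were lower and 23.3% to 27.8% higher. Scaling by library size alone gave 2 higher and 49 lower genes, 0 higher past the stricter call, and medians of -0.38 over the 78 genes, -0.39 for the large and -0.35 for the small subunit. It called 19.9% of all genes higher and 37.5% lower. Limma on FPKM gave 2 higher and 45 to 46 lower genes and 0 higher past the stricter call. Its medians over the 78 were -0.37 (pseudocounts 0.01 and 0.1, with or without filter) and -0.36 (1). For the large subunit they were -0.39 at each pseudocount, and for the small subunit -0.23 to -0.21, so the subunits lay further apart than in the main fit. Among all genes these limma fits called 35.1% to 35.4% lower and 19.1% to 20.5% higher. With a pseudocount of 0.01, 4 genes were lower past the stricter call. DESeq2 and its size factors left 1 gene lower past that call, and the GC and length offset 0. That offset gave medians of -0.17 over the 78 and -0.18 for the large subunit. MRPS36, not called, turned to -0.14 with limma and with library size scaling, -0.012 with the offset, and -0.023 and -0.086 without DMSO replicate 1 and MPM-1 replicate 2. The cause of these shifts was not tested. The labels do not say whether replicate numbers pair the samples. Correlations of same-numbered deviations were 0.021, 0.11 and -0.074, too few to settle it. Only the samples numbered 2 correlated best with their own number. With the replicate block 6 genes were higher and 34 lower, with a median of -0.23, beside 26.8% and 28.1% of all genes. MRPL46, MRPL50, MRPL17 and MRPL18 lay closest to the threshold, with edgeR adjusted p of 0.0472 to 0.0484.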
